A study of Mus musculus with 6 samples.

Results

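The genes described here are 10 imprinted genes, read as rows of the deposited count table by their symbols. Of 17275 genes in that table, 4 are the imprinted cluster on mouse chromosome 12 (Meg3, Rian, Mirg and Dlk1) and 6 are imprinted growth genes elsewhere (Igf2, H19, Igf2r, Cdkn1c, Peg3 and Grb10). All 10 had a row. Meg3 was chosen because its difference between the groups was already known to be among the largest in these libraries, and the others were chosen beside it by name with those results in view. The differences of the 10 genes between the groups are therefore given as a description. Where counts of calls among them are printed, they stand beside the share called over all genes and support nothing.

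The series compared Axin2-positive with Axin2-negative hepatocytes, in 3 libraries each. All animals were C57BL/6 mice of the genotype Axin2rtTA;TetO-H2B-GFP, aged 8 weeks by the protocol and 63 days by the sample labels, and all received doxycycline in the drinking water over 7 days. In these mice the Axin2 promoter drives a doxycycline-dependent activator, which switches on a nuclear green fluorescent protein. Non-parenchymal cells were depleted before sorting, the fluorescent hepatocytes are the Axin2-positive group, and the non-fluorescent hepatocytes of the same genotype and treatment are the Axin2-negative group. A library of each group carries the same sequencing index, and that index gives the replicate number 1, 2 or 3. The labels do not say whether replicates came from separate mice, so the spread between libraries may be partly technical.

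Imprinted genes are expressed mainly from the chromosome inherited from one parent. The chromosome 12 cluster holds the protein-coding genes Dlk1, Rtl1 and Dio3, expressed from the paternal chromosome, and the noncoding RNAs Meg3, Rian and Mirg, expressed from the maternal chromosome. Rian and Mirg are host transcripts of small nucleolar RNAs and microRNAs. Many imprinted genes regulate growth: Igf2 encodes a fetal growth factor, H19 is the noncoding RNA next to it, and Igf2r encodes the receptor that carries the growth factor to lysosomes. In mouse liver several of them, among them Igf2, H19 and Dlk1, are highly expressed before birth and are silenced afterwards.

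Library depth was 77994792 to 103386648 reads assigned to genes in Axin2-positive and 75882611 to 101814611 reads in Axin2-negative libraries, with nearly equal means (p = 1 by a two-sided exact permutation of the labels, where 0.1 is the smallest p that 3 against 3 allows). Levels within a gene are given in CPM, read counts scaled to TMM-adjusted library totals, on which 1 read is worth 0.0103 to 0.0127 CPM. One library went against its label. The library labelled Axin2-positive 1 held 2.40 CPM of Axin2 itself, against 3.04 CPM in the library labelled Axin2-negative 1, while the libraries labelled Axin2-positive 2 and 3 held 22.6 and 24.2 CPM, against 3.75 and 5.75 CPM in the Axin2-negative libraries of the same numbers. The 2 libraries of replicate 1 were alike but not the same: 23.4% of genes differed between them beyond the 95% point of counting error, against 68.0% in replicate 2 and 64.7% in replicate 3. Every direction below that includes the library labelled Axin2-positive 1 carries this limit, and values are given for each replicate number. Replicate 2 held 90.8 and 84.1 CPM of the Y-linked gene Ddx3y in its Axin2-positive and Axin2-negative libraries and the other 4 libraries at most 0.0309 CPM, so replicate 2 came from male cells and sex cannot be told apart from that replicate. The hepatocyte markers Alb, Apoa1, Apob, Ttr, Serpina1c, Tat, Hnf4a, Cps1, Tdo2 and F2 were read in all 6 libraries.

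Meg3 lies on chromosome 12, 109541001 to 109571726 on the plus strand (GRCm38, GENCODE), and is annotated as a long intergenic noncoding RNA. Rian follows at 109603940 to 109661716 and Mirg at 109729764 to 109749460, both noncoding and on the same strand. Dlk1 lies upstream at 109452823 to 109463336. The gap is 77.7 kb between Dlk1 and Meg3, 32.2 kb between Meg3 and Rian, and 68.0 kb between Rian and Mirg. The window from 250 bases before to 50 bases after the Meg3 start is shown because the results turn on Meg3 (the first of 2 such windows listed for it), and that of Peg3 because it is the other of the 10 genes whose window holds the same cyclic AMP response element. Both are from RefSeq on GRCm38, 5′ to 3′ on the gene's strand, with all motif matches in capitals.
Meg3, chr12:109540746-109541045, plus strand: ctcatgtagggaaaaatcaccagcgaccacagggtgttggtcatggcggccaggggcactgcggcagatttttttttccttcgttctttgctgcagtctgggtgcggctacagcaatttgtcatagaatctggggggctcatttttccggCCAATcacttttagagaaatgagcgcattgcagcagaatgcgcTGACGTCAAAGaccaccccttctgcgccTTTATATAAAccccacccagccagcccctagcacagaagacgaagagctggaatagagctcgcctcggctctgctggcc
Peg3, chr7:6730370-6730669, minus strand: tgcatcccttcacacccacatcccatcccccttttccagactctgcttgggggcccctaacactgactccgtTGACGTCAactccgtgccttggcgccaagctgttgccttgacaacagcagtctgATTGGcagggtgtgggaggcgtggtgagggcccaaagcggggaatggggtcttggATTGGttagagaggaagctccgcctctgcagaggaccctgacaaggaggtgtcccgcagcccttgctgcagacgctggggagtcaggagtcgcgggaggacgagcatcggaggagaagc

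The motifs searched, on both strands, were the cyclic AMP response element TGACGTCA, the TATA box TATAAA, the CCAAT box CCAAT and the core CTTTGA of sites bound by TCF factors, the DNA-binding partners of β-catenin. In the Meg3 window TGACGTCA begins at position -57, counted from the start. It shares 3 bases with a CTTTGA on the opposite strand (TCAAAG as printed), so the capitals there run together. A TATAAA begins at -25 and a CCAAT at -100, and the TATAAA overlaps another on the opposite strand. In the Peg3 window TGACGTCA begins at -178, and CCAAT occurs at 2 places on the opposite strand. Among 32851 such windows of all genes, 1.79% hold TGACGTCA, 16.003% CTTTGA, 13.6% TATAAA and 37.4% CCAAT. Windows were available for 8 of the 10 genes, not for H19 or Cdkn1c. None of the windows of Rian, Mirg, Dlk1, Igf2, Igf2r and Grb10 holds TGACGTCA. The other Meg3 window holds none of the motifs searched. CTTTGA is not particular to Meg3 among these genes, as a window of Igf2 holds it at -207 on the opposite strand.

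The stretch from Meg3 to the end of Mirg also holds 54 annotated microRNA hairpins on the same strand, of which 1 lies inside Meg3, 3 inside Rian and 14 inside Mirg. A poly(A)-selected library does not capture mature microRNAs, and a read at a hairpin can come from the host transcript. Mature sequences from RefSeq (GRCm38) are shown for the hairpins with 2 or more reads in 1 library or reads in 2 libraries (miR-453, miR-668, miR-3072 and miR-134, 1 arm each), with the seed, bases 2 to 8, in capitals.
mmu-miR-453: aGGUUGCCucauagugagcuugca
mmu-miR-668-3p: uGUCACUCggcucggcccacuacc
mmu-miR-3072-3p: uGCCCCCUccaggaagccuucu
mmu-miR-134-5p: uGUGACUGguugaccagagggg
The 105 mature sequences of the stretch have 97 distinct seeds, and 8 seeds are shared by a pair. Of the shared seeds, GGUUGCC joins miR-453 to miR-496a-5p and AGGUCAC joins miR-370-5p, whose hairpin also had a read, to miR-1193-3p.
mmu-miR-496a-5p: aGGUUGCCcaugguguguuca
mmu-miR-370-5p: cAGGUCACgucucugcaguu
mmu-miR-1193-3p: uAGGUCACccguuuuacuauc

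The noncoding RNAs of the chromosome 12 cluster were present together in Axin2-positive 2 and 3 and near the limit of detection in the other 4 libraries. Meg3 was at 0.134, 27.1 and 13.1 CPM in the Axin2-positive-labelled libraries 1, 2 and 3 (13, 2137 and 1129 reads), against 0.0523, 0.199 and 0.217 CPM in Axin2-negative 1, 2 and 3 (5, 16 and 19 reads). The 2 high libraries lie far above all others, and the library labelled Axin2-positive 1 lies within the range of the Axin2-negative libraries. Within replicates 2 and 3 the ratio of Axin2-positive over Axin2-negative was 136 (95% interval 83.5 to 238) and 60.6 (38.6 to 101). In replicate 1 it was 2.56 (0.856 to 9.17). These exact intervals cover counting error only, as do all intervals on reads below. Over all 6 libraries Meg3 averaged 13.4 ± 13.5 CPM in Axin2-positive and 0.156 ± 0.0903 CPM in Axin2-negative libraries (SD, n = 3 each), with a log2 fold change of 6.43 (SE 1.79).

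Rian, which hosts small nucleolar RNAs, was at 0.0103, 12.3 and 6.20 CPM in the Axin2-positive-labelled libraries 1, 2 and 3 (1, 969 and 533 reads). The Axin2-negative libraries held 0, 0.0249 and 0.0456 CPM (0, 2 and 4 reads). High and low libraries are the same as for Meg3. The ratio was 493 (136 to 4079) in replicate 2 and 136 (52.8 to 501) in replicate 3. Mirg, the host of a microRNA cluster, had 0, 48 and 25 reads in the Axin2-positive-labelled libraries 1, 2 and 3, or 0, 0.608 and 0.291 CPM. All 3 Axin2-negative libraries had 0 reads of Mirg. Against a floor of 3 reads per library, Mirg was at least 16.3-fold higher in Axin2-positive 2 and at least 8.50-fold higher in Axin2-positive 3 than in their partners.

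**Figure D1:**
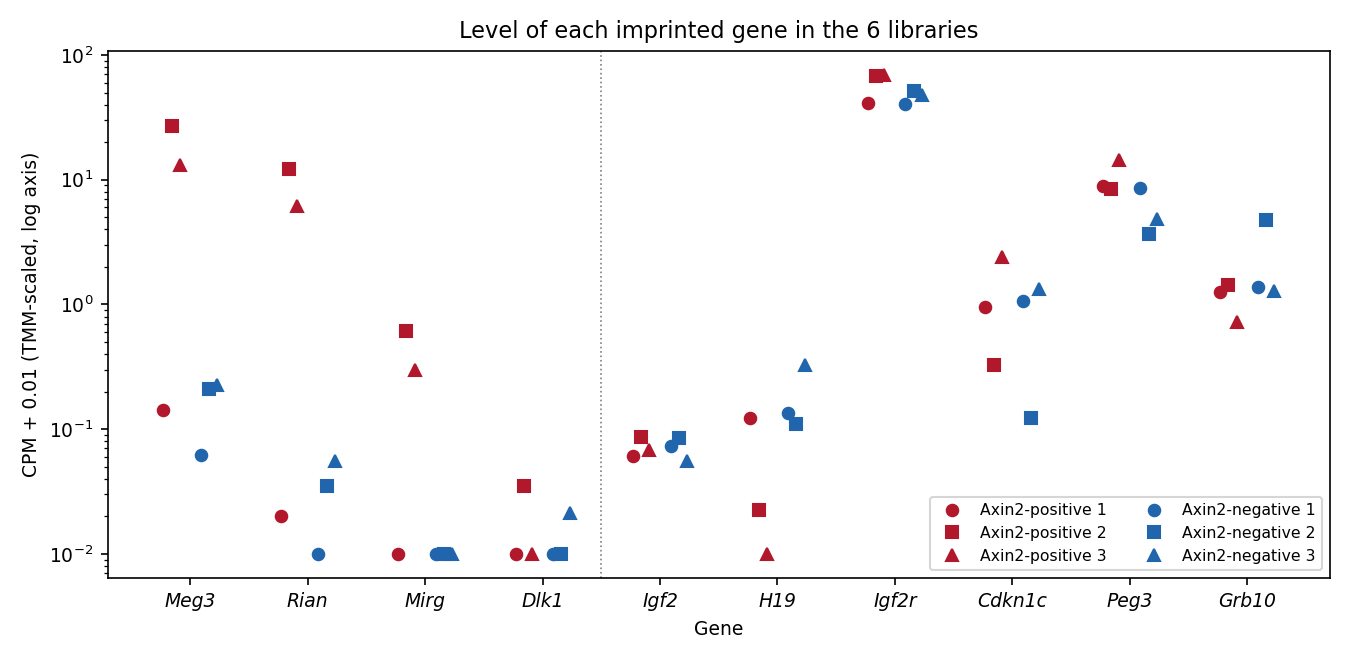
TMM-scaled CPM plus 0.01 (log axis) of each of the 10 genes in each library, one point per library, red for Axin2-positive and blue for Axin2-negative, with the symbol giving the replicate number; the dotted line separates the chromosome 12 cluster from the other genes. Meg3, Rian and Mirg stand high in Axin2-positive 2 and 3, while Dlk1 and Igf2 stay below 0.1 CPM in all 6 libraries.

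Within the 2 high libraries the cluster's RNAs had nearly the same proportions. For every 100 Meg3 reads there were 45.3 Rian reads in Axin2-positive 2 (95% interval 42.0 to 48.9) and 47.2 in Axin2-positive 3 (42.5 to 52.4). Mirg gave 2.25 (1.65 to 2.99) and 2.21 (1.43 to 3.29) per 100 Meg3 reads. The level of Meg3 itself was 27.1 CPM in Axin2-positive 2 and 13.1 CPM in Axin2-positive 3. In Axin2-negative 2 and 3 Rian gave 12.5 (1.39 to 53.2) and 21.1 (5.21 to 63.3) per 100 Meg3 reads, on 2 and 4 Rian reads. Those intervals are wide and include the values of the high libraries. These are read counts, not corrected for transcript length.

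**Figure D2:**
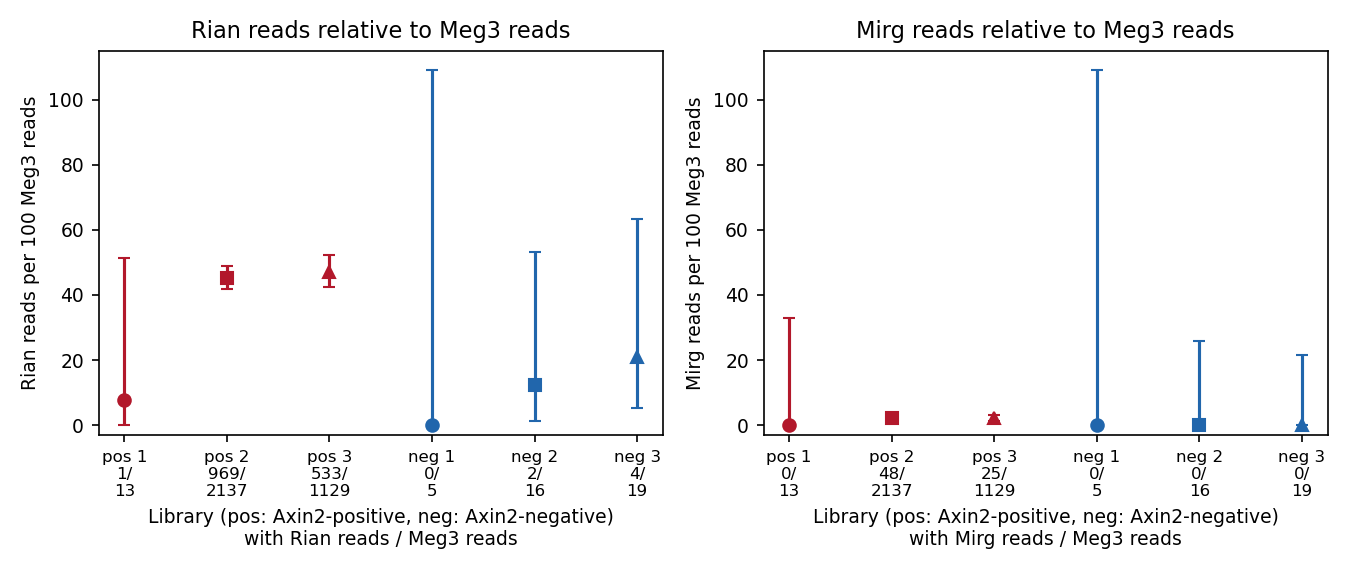
Reads of Rian (left) and Mirg (right) per 100 Meg3 reads in each library, with exact 95% intervals for counting error; the reads behind each point stand under its label. The intervals of Axin2-positive 2 and 3 overlap almost fully, and those of the other libraries are wide because they rest on 5 to 19 Meg3 reads.

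The microRNA rows of the stretch held few reads, all in Axin2-positive 2 and 3. Every gene in the count table had reads in some library, so these hairpins have rows only through those 2 libraries. The reads can also come from the host transcripts, so these rows are not separate evidence. Of the 54 hairpins, 8 had a row in the count table: Mir370, Mir134, Mir668, Mir485, Mir453, Mir377, Mir369 and Mir3072. Their summed reads were 0, 12 and 3 in the Axin2-positive-labelled libraries 1, 2 and 3, against 0, 0 and 0 in the Axin2-negative libraries. Mir453 alone gave 4 reads and Mir668 gave 3, all in Axin2-positive 2. These sequences are printed above with their seeds.

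The protein-coding genes of the cluster did not show this pattern. Dlk1 encodes a membrane protein related to Notch ligands and found on fetal hepatoblasts. It had 0, 2 and 0 reads in the Axin2-positive-labelled libraries 1, 2 and 3, against 0, 0 and 1 reads in the Axin2-negative libraries. All these counts lie at or under the floor of 3 reads, which is 0.0309 to 0.0380 CPM, and no ratio is given. Rtl1, a retrotransposon-derived gene read from the paternal chromosome, had the same 0, 2 and 0 reads against 0, 0 and 1. Dio3, which encodes a deiodinase that inactivates thyroid hormone, had 3, 1 and 6 reads in the Axin2-positive-labelled libraries 1, 2 and 3, against 2, 1 and 3. For none of Dlk1, Rtl1 and Dio3 was a difference detectable at this depth.

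Genes around the cluster differed less. Apart from the 4 cluster genes, 23 genes annotated within 1 Mb of Meg3 had a row, and 7 of them were abundant enough to test. Over 6 libraries edgeR called 0 of these 7 (Benjamini-Hochberg adjusted p of 0.999 for each), as it called 0% of all 12343 genes. The abundant neighbours were Slc25a47, Yy1 and Ppp2r5c. Slc25a47 encodes a liver mitochondrial carrier and stood at 941, 425 and 362 CPM in the Axin2-positive-labelled libraries 1, 2 and 3, against 978, 890 and 575 CPM. The transcription factor gene Yy1 gave 36.1, 40.6 and 45.3 CPM against 35.0, 37.3 and 49.5 CPM. Ppp2r5c, a phosphatase subunit gene, gave 40.9, 40.4 and 37.1 CPM against 41.4, 35.5 and 40.0 CPM. Among the 7 tested neighbours the log2 difference ranged from -1.07 to 1.27 in replicate 2 and from -0.67 to 0.85 in replicate 3, with both highest values in Dio3os. Dio3os, a noncoding RNA beside Dio3, gave 60, 15 and 37 reads in the Axin2-positive-labelled libraries 1, 2 and 3, against 49, 4 and 19.

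**Figure D3:**
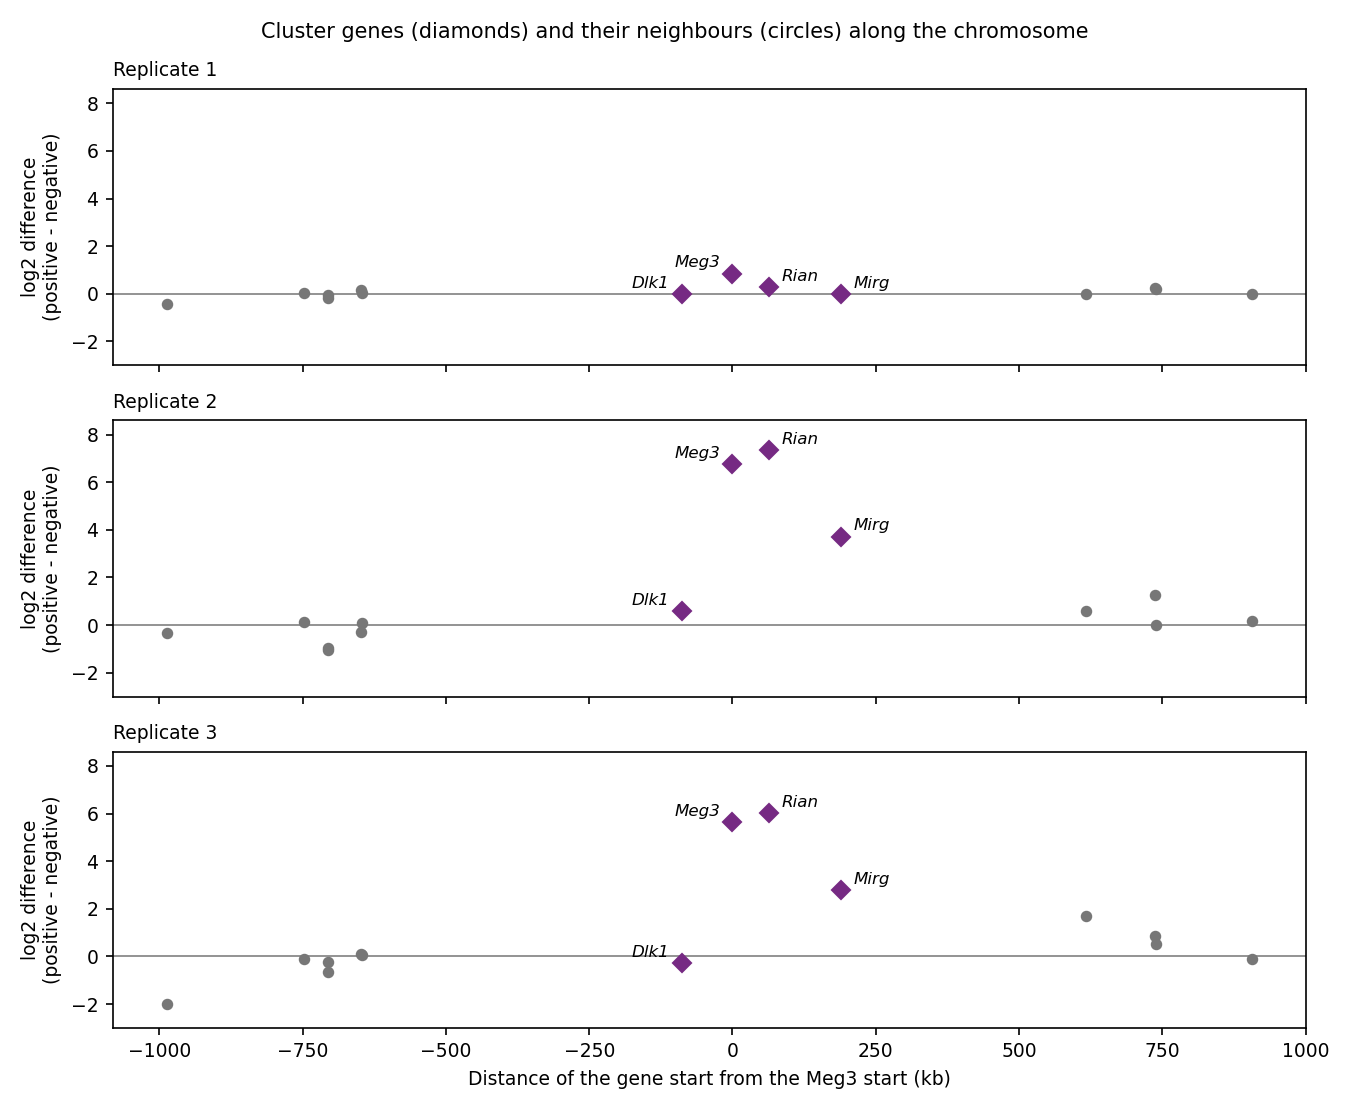
Log2 difference in CPM (Axin2-positive minus Axin2-negative, offset 0.05 CPM) within each replicate number, plotted against the distance of each gene's start from the Meg3 start in kb; purple diamonds are the 4 cluster genes and grey circles neighbours with at least 10 reads in all. Meg3, Rian and Mirg lie between 2.77 and 7.36 in replicates 2 and 3 and under 1 in replicate 1, above every neighbour in replicates 2 and 3.

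Markers of cell types other than hepatocytes were summed per library beside these results. Of 13 markers of stellate cells and fibroblasts in the table, 10 had 0 reads in Axin2-positive 2. Among these were Col1a1, Col1a2, Col3a1, Des, Pdgfrb and Dcn, which also stands in the list of other imprinted genes read below. In Axin2-positive 3 1 of the 13 was at 0, and in Axin2-positive 1 it was 4, against 3, 7 and 0 in Axin2-negative 1, 2 and 3. The summed level of the list was 7.14, 0.621 and 7.29 CPM in the Axin2-positive-labelled libraries 1, 2 and 3, against 6.94, 1.48 and 9.29 CPM in Axin2-negative 1, 2 and 3. For 12 endothelial markers the sums were 212, 129 and 222 CPM against 208, 135 and 258 CPM, and Cdh5, Lyve1 and Tek had 0 reads in Axin2-positive 2. Dpp4 alone held 147, 127 and 158 CPM of these sums against 147, 128 and 172 CPM, and the median log2 difference over the list was 0.06, -1.37 and -0.47 in replicates 1, 2 and 3. The 9 Kupffer cell markers summed to 3.76, 1.27 and 4.93 CPM against 3.84, 5.16 and 26.5 CPM. The 8 bile duct markers gave 109, 15.1 and 16.01 CPM against 108, 75.1 and 84.9 CPM. Few of the 9 lymphocyte and erythroid genes had a row, 4 in all, with sums of 16.4, 191 and 26.9 CPM against 15.8, 200 and 17.1 CPM. Alas2 alone held 16.4, 191 and 26.9 CPM of these sums against 15.7, 200 and 16.6 CPM. Ptprc was at most 0.479 CPM and Cd3e at most 0.0127 CPM in any library. The stellate cell sum was low in both libraries of replicate 2, and near 7 CPM in Axin2-positive 3, where Meg3 was also high. Sums of Kupffer and bile duct markers were lower in Axin2-positive 2 and 3 than in their partners. Against a fold of 1.5, edgeR's 2-pair fit described below called 3 of 7 tested Kupffer markers lower (Clec4f, Cd5l and Csf1r). It also called 3 of 4 tested bile duct markers lower (Cdh1, Sox9 and Spp1), where 0.888% of all genes were called lower. Cdh1 and Sox9 also stand in the periportal list, and the part of these or the other cell type markers in the levels of the imprinted genes was not tested. In sorted bulk cells, fewer cells that contain an RNA and less of it per cell cannot be told apart.

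Peg3, a zinc finger gene expressed from the paternal chromosome, stood at 8.89, 8.35 and 14.3 CPM in the Axin2-positive-labelled libraries 1, 2 and 3, against 8.64, 3.63 and 4.86 CPM in Axin2-negative 1, 2 and 3. The groups overlap, because both libraries of replicate 1 sit near 9 CPM. The ratio was 1.03 (0.934 to 1.13) in replicate 1, 2.30 (1.999 to 2.646) in replicate 2 and 2.95 (2.64 to 3.31) in replicate 3. Over 6 libraries the log2 fold change of Peg3 was 0.88 (SE 0.38).

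Igf2r, the receptor gene, was at 41.2, 68.0 and 69.5 CPM in the Axin2-positive-labelled libraries 1, 2 and 3, against 40.7, 51.2 and 47.6 CPM in Axin2-negative 1, 2 and 3. The high pair of libraries is the same as for Meg3, with a much smaller gap. Its ratio was 1.01 (0.968 to 1.06), 1.33 (1.28 to 1.38) and 1.46 (1.40 to 1.52) in replicates 1, 2 and 3, and the log2 fold change over 6 libraries was 0.36 (SE 0.22). Airn, the paternally expressed RNA that overlaps Igf2r in antisense, had 1, 6 and 17 reads in the Axin2-positive-labelled libraries 1, 2 and 3, against 0, 0 and 1 reads. Whether the counting used strand is not given in the sources used here. Reads of Airn and Igf2r can therefore not be told apart with certainty.

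Cdkn1c encodes the cell cycle inhibitor p57 and is expressed from the maternal chromosome. It gave 0.947, 0.317 and 2.37 CPM in the Axin2-positive-labelled libraries 1, 2 and 3, against 1.06, 0.112 and 1.31 CPM. The groups overlap, and both libraries of replicate 2 were the lowest of their group. The ratio was 0.897 (0.669 to 1.20), 2.83 (1.28 to 6.89) and 1.81 (1.43 to 2.29) in replicates 1, 2 and 3. The log2 fold change over 6 libraries was 0.55 (SE 1.02), and -0.39 without the library labelled Axin2-positive 3.

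Grb10, which encodes an adaptor that restrains insulin and IGF receptors, went the other way. It was at 1.26, 1.43 and 0.709 CPM in the Axin2-positive-labelled libraries 1, 2 and 3, against 1.37, 4.70 and 1.27 CPM in Axin2-negative 1, 2 and 3. One library, Axin2-negative 2, stands above all others. The ratio was 0.917 (0.711 to 1.18), 0.304 (0.244 to 0.376) and 0.561 (0.403 to 0.773) in replicates 1, 2 and 3. The log2 fold change over 6 libraries was -1.11 (SE 0.61), and -0.22 without Axin2-negative 2.

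The fetal growth genes on chromosome 7 were near the limit of detection. Igf2, the growth factor gene, had 5, 6 and 5 reads in the Axin2-positive-labelled libraries 1, 2 and 3, against 6, 6 and 4 reads. Its ratios lay between 0.820 and 1.28, with intervals that reach from 0.198 to 6.43, so a difference was not detectable at this depth. H19 had 11, 1 and 0 reads in the Axin2-positive-labelled libraries 1, 2 and 3, against 12, 8 and 28 reads. The ratio of H19 was 0.902 (0.361 to 2.23) in replicate 1 and 0.127 (0.00287 to 0.949) in replicate 2. In replicate 3 H19 was at least 9.15-fold lower in Axin2-positive than in Axin2-negative, against the floor of 3 reads. H19, like Meg3 a maternally expressed noncoding RNA, thus had its lowest counts in the 2 libraries where Meg3 was high.

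**Figure D4:**
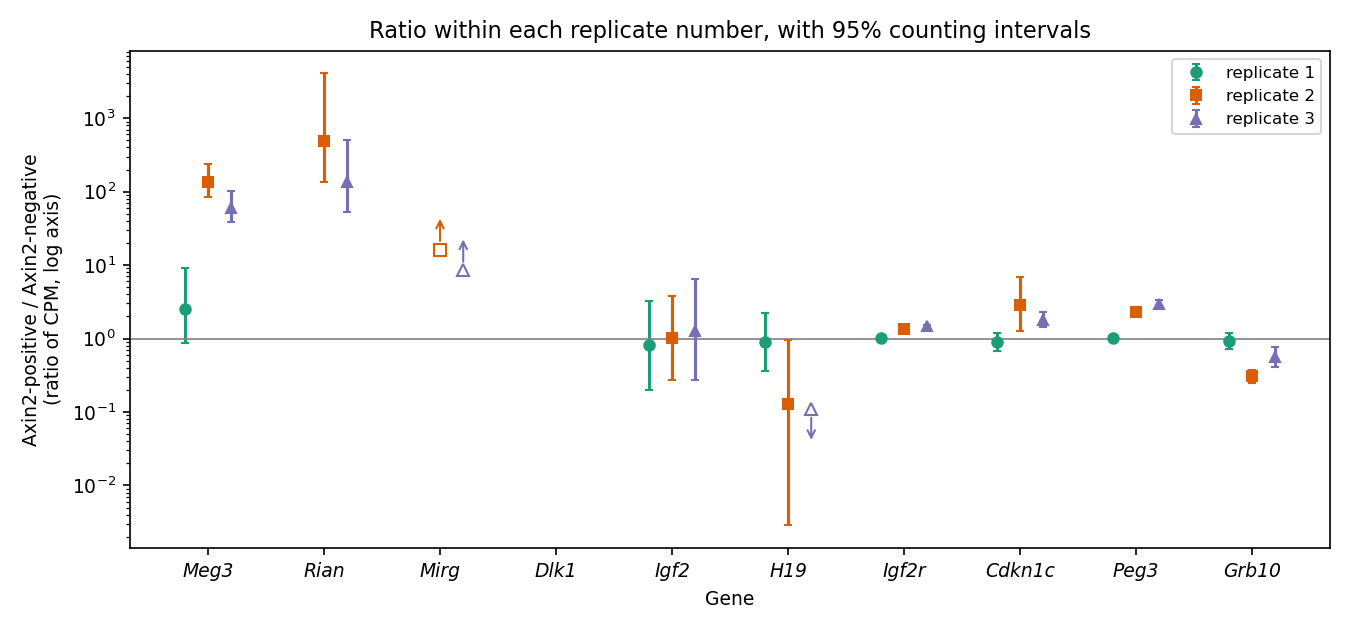
Ratio of CPM, Axin2-positive over Axin2-negative (log axis), within each replicate number, with 95% intervals for counting error; open symbols with arrows are bounds against a floor of 3 reads, and no point is drawn where both libraries are at or under the floor or where 1 read faces 0. Replicate 1 lies near 1 for Igf2r, Cdkn1c, Peg3 and Grb10, while replicates 2 and 3 lie above 1 for Meg3, Rian, Mirg, Igf2r, Cdkn1c and Peg3 and below 1 for Grb10 and H19.

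Levels can be compared between genes only per transcript length, and the authors' deposited table gives these as FPKM, fragments scaled to transcript length and library size, with 1 value per group. Summed over the transcripts of a gene in the authors' deposited table, Igf2r was highest in both groups, with 6.23 FPKM in Axin2-positive and 4.95 in Axin2-negative cells. In that table Meg3 came next in Axin2-positive cells with 5.52 FPKM and was sixth in Axin2-negative cells with 0.0683. Of 4 Meg3 transcripts in the authors' deposited table, 1 carried most of this, with 4.71 FPKM in Axin2-positive and 0.0431 in Axin2-negative cells. Peg3 stood at 1.36 and 0.700 FPKM, Rian at 1.28 and 0.00991, and Cdkn1c at 0.955 and 0.651 in Axin2-positive and Axin2-negative cells in the authors' deposited table. The same table gave Grb10 at 0.248 and 0.569 FPKM and Mirg at 0.196 and 0. The authors' deposited table placed H19 at 0.0219 and 0.0804, Igf2 at 0.0208 and 0.0218, and Dlk1 at 0.00192 and 0.00210 FPKM. The transcripts of Mirg, Dlk1, Igf2 and H19 are all marked as not tested in the authors' deposited table. The authors' values join the 3 libraries of a group, including the library labelled Axin2-positive 1, so the spread behind this order is not known.

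**Figure D5:**
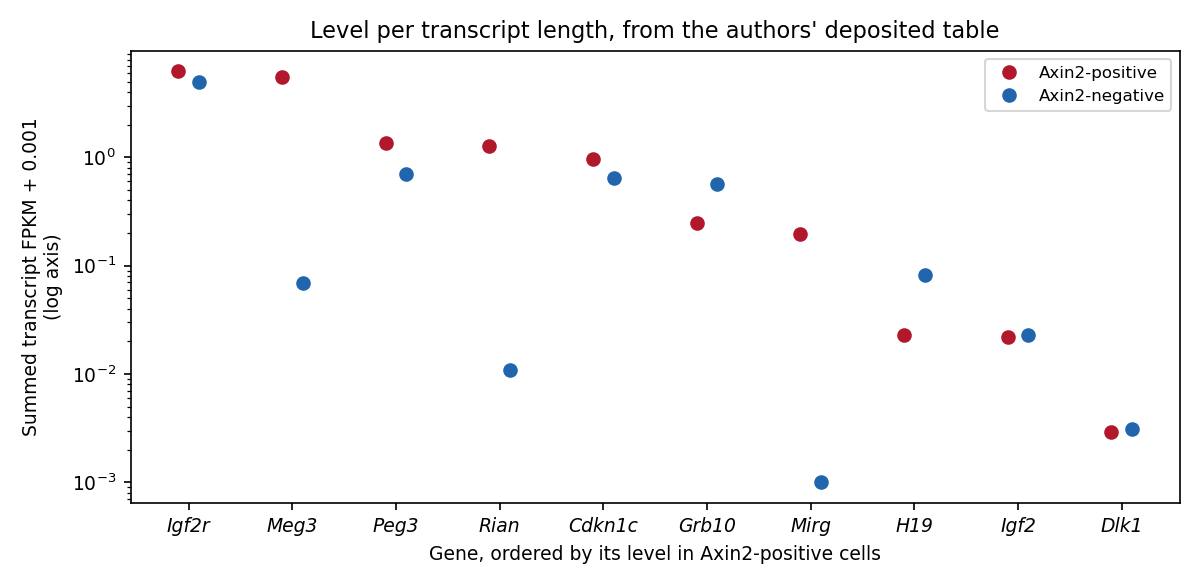
FPKM summed over the transcripts of each gene plus 0.001 (log axis) in Axin2-positive (red) and Axin2-negative (blue) cells, from the authors' deposited table, with no replicates. Meg3 stands next to Igf2r in Axin2-positive cells, against 0.0683 FPKM in Axin2-negative cells, and Mirg is listed at 0 in Axin2-negative cells.

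Fitted over all 6 libraries with group alone, edgeR's quasi-likelihood test called 0 of the 5 genes of the set that passed its filter on low counts (Meg3, Igf2r, Cdkn1c, Peg3 and Grb10), where it called 0% of all genes. At an unadjusted p under 0.05 it listed 279 of 12343 genes, and DESeq2 and limma-voom also called 0. Rian and Mirg did not pass that filter because they were abundant in only 2 libraries, and Dlk1, Igf2 and H19 were too low. With the replicate number as a block and without both libraries of replicate 1, 7 of the genes were tested, Rian and Mirg among them. Rian and Mirg passed through the libraries where they are high, and the choice to omit replicate 1 was made knowing its small differences. That edgeR fit called 5 of the 7 higher (Meg3, Rian, Mirg, Igf2r and Peg3) and 0 lower, where 7.44% of 12385 genes were called, 3.43% higher and 4.01% lower. Tested against a fold of 1.5, it called 3 of the 7 higher (Meg3, Rian and Peg3) and 0 lower, where 1.68% of genes were called, 0.791% higher and 0.888% lower. Meg3 was known beforehand from this same contrast, and the filter and the choice of pairs favour Rian and Mirg, so nothing is read from these counts. The log2 fold changes in the 2 pairs were 6.52 (SE 0.27) for Meg3, 1.39 (SE 0.15) for Peg3, 0.48 (SE 0.087) for Igf2r, 1.06 (SE 0.34) for Cdkn1c and -1.30 (SE 0.30) for Grb10.

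Over the 6 libraries, the log2 CPM of Meg3 was correlated with that of genes that mark hepatocytes around the central vein. Pearson's r with Meg3 was 0.97 for Axin2, 0.95 for the cytochrome gene Cyp2e1 and 0.86 for the glutamine synthetase gene Glul, and -0.99 for Cyp2f2, which marks hepatocytes around the portal vein. These are descriptions over 6 libraries that share 2 groups and 3 replicate numbers. Meg3 was chosen for its difference between these libraries and Axin2 defines the sort, so the values largely restate that choice. Between Axin2-positive 2 and 3 the level of Meg3 fell from 27.1 to 13.1 CPM. Glul rose from 339 to 1050 CPM there, while Axin2 (22.6 and 24.2 CPM) and Cyp2e1 (11162 and 11166 CPM) changed little. Cyp2f2 rose from 6.17 to 18.8 CPM. Likeness to Meg3 was read among the 12342 other genes that passed the filter on low counts. Rian, Mirg, Dlk1, Igf2 and H19 did not pass it and were not compared. The 10 compared genes most like Meg3 were Rcbtb1, Ptplad1, Osbpl8, Abcd3, Capza1, Sult1b1, Fam82a1, Denr, Fnta and Hsp90ab1, with r from 0.9926 to 0.9976. Their differences were far smaller than that of Meg3: in replicate 2 they ranged from 0.091 for Fnta, a farnesyltransferase subunit gene, to 1.75 for Fam82a1 on the log2 scale. The choice of the 10 is not stable, as none of them remained with Spearman's rho. Among the members that were compared, r with Meg3 was 0.96 for Igf2r, 0.51 for Peg3, 0.056 for Cdkn1c and -0.39 for Grb10.

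Among the genes compared, the 5 least like Meg3 were Dusp14, Peg10, Atp5g2, Mlst8 and Pde4c, with r from -0.9960 to -0.9996. Peg10 is itself imprinted, a retrotransposon-derived gene expressed from the paternal chromosome. It stood at 0.381, 0.0253 and 0.0465 CPM in the Axin2-positive-labelled libraries 1, 2 and 3, against 0.460, 0.348 and 0.296 CPM, or 37, 2 and 4 reads against 44, 28 and 26. Peg10 was picked for its low r with Meg3, so its low level in the 2 libraries where Meg3 is high follows from that choice. It rests on few reads, and whether the choice of these 5 genes is stable was not tested.

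Other imprinted genes were read from a list, and whether they are imprinted in these cells was not tested. Of 60 listed, 52 had a row and 32 were tested. Over 6 libraries edgeR called 0 of the 32, with a median log2 fold change of 0.04, against -0.0047 over all genes. The range ran from -1.29 for Sgce to 2.06 for Slc22a3. The most abundant were Slc38a4, which encodes an amino acid transporter, Gnas, which encodes a G protein subunit, and Cd81, a tetraspanin gene. Their log2 fold changes were -0.40 (SE 0.25), -0.01 (SE 0.12) and 0.30 (SE 0.14), each with an edgeR adjusted p of 0.999. Against a fold of 1.5 in the 2 pairs 0 of the list were called.

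Regulators of imprints and their chromatin, 22 tested genes such as Hnrnpu, Rbbp4 and Zfp445, had a median of 0.06, with 0 calls over 6 libraries and 0 against a fold of 1.5 in the 2 pairs. The 13 tested genes of the fetal liver programme and its repressors, among them Zhx1, Zhx3 and Elovl3, had a median of 0.09, likewise with 0 calls in both tests. The 24 tested genes of insulin and IGF signalling, the pathway of Igf2, Igf2r and Grb10, had a median of -0.06 and 0 calls over 6 libraries. In the 2 pairs, edgeR's test against a fold of 1.5 called Igfbp2 (log2 fold change -1.32, SE 0.13, adjusted p = 0.0332) and Igfbp5 (-1.51, SE 0.17, adjusted p = 0.0394) lower, both genes of secreted IGF-binding proteins. That test called 0.888% of all genes lower, and Igfbp2 also stands in the periportal list. The most abundant signalling genes, Igfbp4, Igfbp1 and Igf1, had log2 fold changes of -0.39, -0.35 and -0.76 in the 2 pairs and were not called. Partners of Cdkn1c in the cell cycle (16 tested, among them Ccnd1, Mdm2 and Cdk4) had a median of 0.03. Notch pathway genes, to which Dlk1 is related (17 tested, among them Psen2, Notch2 and Hes6), had a median of -0.07. Lysosomal genes and sorting partners of Igf2r (20 tested, among them Ctsb, Ctsl and Ctsd) had a median of -0.05. In each of these last 3 lists edgeR called 0 genes over 6 libraries and 0 against a fold of 1.5 in the 2 pairs.

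For comparison, the 19 tested pericentral genes had a median of 1.86 over 6 libraries, with 0 called. Against a fold of 1.5 in the 2 pairs 12 were called higher, where 0.791% of all genes were called higher. The 18 tested periportal genes had a median of -0.80, with 0 called over 6 libraries. In the same test of the 2 pairs 12 were called lower, where 0.888% of all genes were called lower. The pericentral medians within replicates 1, 2 and 3 were 0.0043, 2.57 and 2.06, against 0.85, 6.77 and 5.63 for Meg3. The Meg3 value in replicate 1 rests on 13 against 5 reads, and the interval of that ratio includes 1 (0.856 to 9.17). Meg3 is a single gene chosen for its large difference, set here against a median. Single genes of the list lay further out, such as Slc1a2 at -0.642, 5.31 and 3.31 in replicates 1, 2 and 3. The SD of the log2 difference over all genes tested had the same order of replicates, 0.22, 0.78 and 0.62.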

How the data were processed

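Hepatocyte RNA was sequenced in 6 libraries from a stranded mRNA kit, per the labels' protocols. The deposited count table holds whole numbers of reads for each gene symbol and library. Per the submitters' processing notes, the tools were TopHat2 2.0.11 and Cuffdiff 2.2.2 and the genome build was mm10. How genes were counted, on which annotation and with which strand setting is not stated in the sources used here. FPKM values per transcript, 1 for each group, are in the authors' deposited comparison table. The member genes, gene lists, tests and alternatives were chosen with earlier results of these data known.

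The main test was edgeR 4.0.16 under R 4.3.3 (default filter on low counts, TMM scaling, quasi-likelihood F test, group alone), with Benjamini-Hochberg adjustment over all genes tested and a threshold of 0.05. SE is the log2 fold change divided by the square root of F. Alternatives were DESeq2 1.42.0, limma-voom (limma 3.58.1), other scalings and filters, the replicate block, leaving out each library, and leaving out both libraries of a replicate. The test against a fold of 1.5 was added after the data were seen. The scripts were tested on simulated data. Same-numbered libraries deviated together from their group means (r of 0.68, 0.82 and 0.75, all over 0.1), so the shared index was taken to pair the libraries. For log2 differences between paired libraries, 0.05 CPM was added to each value. Coordinates are from GENCODE on GRCm38 (mm10), and all 10 positions overlap the locus in the authors' table. Named genes were the 10 members, the sort checks Axin2, Glul, Cyp2e1 and Cyp2f2, the 10 most and 5 least like Meg3, the called and 3 most abundant members of each list, and likewise for genes within 1 Mb.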

Additional observations from a re-analysis of the deposited data

How the results depend on the processing

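Over 6 libraries edgeR called 0 genes higher and 0 lower, and so did DESeq2, limma-voom, the other scalings and filters, and the fit with the replicate block, in which 1132 genes had an unadjusted p under 0.05. Leaving out single libraries gave 0 to 1 higher and 0 to 5 lower calls, and 0 to 1 calls among the listed genes, the calls coming without the library labelled Axin2-positive 1. With the replicate block and without both libraries of replicate 1 edgeR called 425 genes higher and 497 lower (7.44%). Among them were 5 of the 10 imprinted genes and 44 listed genes. Against a fold of 1.5 these were 98 higher, 110 lower, 3 and 25. Most listed genes called are from the pericentral and periportal lists, with 16 pericentral genes higher and 17 periportal genes lower. Against a fold of 1.5 those lists gave 12 higher and 12 lower. Leaving out replicate 2 or 3 in the block fit gave 0 calls. The replicate block gave log2 fold changes of 6.05 for Meg3, 0.33 for Igf2r, 0.63 for Cdkn1c, 0.93 for Peg3 and -0.90 for Grb10. Meg3 and Cdkn1c did not pass the filter of at least 1 CPM in 3 libraries, so that alternative gave no value for them. Over the alternatives that tested each gene, Meg3 ranged from 4.52 (limma-voom) to 7.01 and Igf2r from 0.21 to 0.56. Peg3 ranged from 0.59 to 1.39 and Grb10 from -1.42 to -0.22, and each of these genes kept its sign. Cdkn1c ranged from -0.39 to 1.06 and kept its sign in 15 of 16. Of the 10 genes most like Meg3, 0 remained with Spearman's rho, 5 with an offset of 0.5 CPM, and 1 to 6 when single libraries were left out. With that offset the log2 differences in replicates 2 and 3 were 1.148 and 0.66 for Mirg, -0.23 and -0.71 for H19, 4.61 and 3.62 for Rian (7.36 and 6.03 with 0.05 CPM), 5.30 and 4.25 for Meg3, and 0.42 and 0.67 for Cdkn1c (1.18 and 0.83 with 0.05 CPM). A larger offset shrinks differences of low values by construction. The cause of the other shifts was not tested. Depth limits Dlk1, Igf2 and H19, with at most 28 reads in a library.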

Other observations

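Without the fold threshold, the fit of replicates 2 and 3 with the replicate block called 3 of the 32 tested imprinted genes other than the members, where 7.44% of all genes were called, so the share is near that of all genes. Slc22a3, which encodes an organic cation transporter and lies in the imprinted cluster of Igf2r and Airn, was at 0.576, 1.20 and 8.76 CPM in the Axin2-positive-labelled libraries 1, 2 and 3, against 0.732, 0.473 and 1.31 CPM in Axin2-negative 1, 2 and 3 (log2 fold change 2.15, SE 0.38, edgeR adjusted p = 0.0384; 2.06, SE 1.07, adjusted p = 0.999 over 6 libraries). Most of its difference is in 1 library, Axin2-positive 3. Cobl, which encodes an actin-nucleating protein and is a neighbour of Grb10, was at 24.1, 5.98 and 16.9 CPM against 25.1, 28.6 and 33.3 CPM (-1.59, SE 0.30, edgeR adjusted p = 0.0433; -0.89, SE 0.48, adjusted p = 0.999 over 6 libraries). Slc38a4 was at 1032, 1210 and 1239 CPM against 1014, 1788 and 1804 CPM (-0.55, SE 0.096, edgeR adjusted p = 0.0369).

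The same fit called Irs1, which encodes a docking protein of the insulin and IGF receptors, higher. It was at 22.7, 62.6 and 63.3 CPM in the Axin2-positive-labelled libraries 1, 2 and 3, against 21.7, 30.6 and 34.3 CPM (log2 fold change 0.96, SE 0.087, edgeR adjusted p = 0.00835; 0.78, SE 0.41, adjusted p = 0.999 over 6 libraries). Igfals, the gene of the subunit that stabilises circulating IGF complexes, was lower, at 184, 61.6 and 105 CPM against 192, 119 and 182 CPM (-0.87, SE 0.10, edgeR adjusted p = 0.0157; -0.49, SE 0.42, adjusted p = 0.999 over 6 libraries). Zhx2, which encodes a repressor of fetal liver genes, stood at 14.5, 13.9 and 11.8 CPM against 16.2, 19.5 and 17.0 CPM (-0.50, SE 0.095, edgeR adjusted p = 0.0426; -0.39, SE 0.12, adjusted p = 0.999 over 6 libraries). Omitting replicate 1 was decided knowing its small differences, so these calls rest on 2 pairs and are not independent evidence.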
